A study of Mus musculus with 6 samples.

Results

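The Hox genes encode homeodomain transcription factors that give cells their position along the head-to-tail axis. In the mouse they lie in 4 clusters, A, B, C and D, and members at the same place in different clusters are paralogues that share a number. Low numbers are active first and farthest toward the head, in the hindbrain. High numbers are active later, in the trunk, tail, limb buds and hindgut. Retinoic acid (RA) is made in the embryo from vitamin A. Its receptors are nuclear proteins that bind DNA, and it is known to induce Hox genes at the low-number end, some of them directly. Hox proteins often bind DNA together with homeodomain cofactors of the Pbx, Meis and Pknox families.

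All probe sets of the array whose annotation gave a single mouse symbol made of Hox, a cluster letter and a number were taken, which were 48 of 45037 probe sets and stood for 33 of the 39 mouse Hox genes. The rule reads symbols and no measured value. The other 6 are not analysed here. The 6 arrays came from embryoid bodies, the aggregates in which mouse embryonic stem cells differentiate, at day 10, and each array read the RNA of whole bodies. In 3 of them the bodies held gelatin-coated microspheres loaded with RA. In the 3 controls the gelatin-coated microspheres carried the dye CellTracker Red, so RA and the absence of the dye cannot be told apart. All bodies were made from the D3 stem cell line without LIF, the factor that keeps these cells undifferentiated, and under rotary culture. The labels speak of various microsphere to cell ratios and rotary speeds without tying them to arrays, and do not say that the triplicates were separate cultures. The p-values given here thus rest on the scatter among 6 samples, and part of that scatter may be technical.

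Values are given as quantile-normalized log2(intensity + 16), called log2 levels, and changes as RA minus control on that scale with the fitted standard error (SE) and n = 3 arrays in each group. Adding 16 understates the change of dim probe sets. A group mean under 5.74, the level that 40% of all probe sets fall below, is called near background. By this mark 11 Hox probe sets were near background in both groups and get no fold change, and 37 probe sets of 28 genes were above it in at least 1 group. The median deposited intensity ran from 61.7 to 65.5 on the RA arrays and from 41.4 to 63.6 on the control arrays, with control array 3 lowest. The signal of the 3-prime over the 5-prime Gapdh probe set grows when RNA is degraded. It was 34.0 on RA array 1 and 3.06 to 4.74 on the other 5 arrays. For actin it was 7.42, 4.35 and 4.90 on RA arrays 1, 2 and 3. On control arrays 1, 2 and 3 it was 3.46, 3.35 and 4.24. Every RA array thus lay above every control array by actin, and the part of RNA quality in the changes was not tested. RA array 1 and control array 3 were also left out together, which does not remove the actin difference.

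The promoters of the Hox genes with the largest falls are shown because these genes, from both cluster A and cluster D, fell together. Each run is the 250 bases before the start site, 5′ to 3′, from RefSeq (GRCm38.p6). Capitals mark TTTAT, the core bound by Cdx and posterior Hox proteins, and AGGTCA or AGTTCA, half-sites of retinoic acid receptors, on either strand. Hoxa10 and Hoxd11 have 2 listed starts each, and the first in the RefSeq table's own order was used.
Hoxa11 (chr6:52245811-52246060, minus strand): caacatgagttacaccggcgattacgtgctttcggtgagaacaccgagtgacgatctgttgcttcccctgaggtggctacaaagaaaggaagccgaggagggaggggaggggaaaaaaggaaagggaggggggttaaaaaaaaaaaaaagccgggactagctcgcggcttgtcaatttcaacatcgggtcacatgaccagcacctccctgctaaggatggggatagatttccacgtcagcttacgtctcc
Hoxd9 (chr2:74697513-74697762, plus strand): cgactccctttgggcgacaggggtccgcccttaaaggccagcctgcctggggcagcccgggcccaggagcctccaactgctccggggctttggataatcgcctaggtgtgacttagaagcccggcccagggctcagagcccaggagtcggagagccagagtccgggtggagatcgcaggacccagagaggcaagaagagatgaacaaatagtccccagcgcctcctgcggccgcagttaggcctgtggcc
Hoxa10 (chr6:52240855-52241104, minus strand): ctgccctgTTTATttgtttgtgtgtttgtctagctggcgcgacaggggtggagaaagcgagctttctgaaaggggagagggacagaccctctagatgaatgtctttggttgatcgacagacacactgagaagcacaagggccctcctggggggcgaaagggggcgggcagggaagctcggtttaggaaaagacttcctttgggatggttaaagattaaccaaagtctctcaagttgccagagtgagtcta
Hoxd10 (chr2:74691641-74691890, plus strand): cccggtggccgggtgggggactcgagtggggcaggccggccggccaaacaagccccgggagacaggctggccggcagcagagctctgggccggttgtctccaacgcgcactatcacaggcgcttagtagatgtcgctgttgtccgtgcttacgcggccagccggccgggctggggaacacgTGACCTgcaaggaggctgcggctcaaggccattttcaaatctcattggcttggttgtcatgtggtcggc

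Of the 33 Hox genes, 19 had a promoter in the table. TTTAT was in the promoter of 3 of the 9 genes with a lower probe set and of 3 of the other 10, against 38.1% of 27025 genes with a promoter. AGGTCA was in 2 of the 9 and 3 of the 10, against 13.8% of all. AGTTCA was in 1 of each set, against 11.9% of all. Either half-site repeated in the same direction after 5 bases was in 0 of the 19 windows, and in 2 (AGGTCA) and 6 (AGTTCA) of all. CCAAT was in 3 of the 9 and 7 of the 10, against 34.5% of all, and TATAAA in 1 of the 9 and 0 of the 10, against 3504 of all. All motifs were sought on both strands and over these 250 bases only. The ratio of observed to expected CpG had a median of 0.490 for the 9, 0.640 for the 10 and 0.378 for all promoters. With the second start of Hoxa10 and Hoxd11 the median of the 9 was 0.755, so its place beside the 10 depends on that choice. TTTAT was then in 2, CCAAT in 4 and TATAAA in 2 of the 9.

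Bodies with RA microspheres had lower levels of several Hox genes toward the high-number side of clusters A and D. Leading this were Hoxa9, Hoxa10 and Hoxa11 and Hoxd8, Hoxd9 and Hoxd10, which were 2.83 to 4.80 times lower with RA. Hoxa13, at the high-number end of cluster A, did not pass, while Hoxa3, of low number, passed by part of its probe sets. No Hox probe set passed as higher. Of 48 Hox probe sets 11 were lower and 0 higher (limma, adjusted p under 0.05), against 6.15% lower and 5.87% higher among all 45037 probe sets. At an unadjusted p under 0.05 limma gave 15 lower and 3 higher, against 5165 lower and 5371 higher of all 45037 probe sets. The 11 stood for 9 genes, 4 of cluster A and 5 of cluster D. The median change was -0.36 over the 48 and 0.02 over all probe sets. RA and control arrays did not overlap in 17 Hox probe sets lower with RA and in 3 higher, where the background is 13.5% lower and 15.0% higher.

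Which genes passed depended in part on the processing. Over 18 alternative settings, the probe sets of Hoxa9, Hoxa10, Hoxa11, Hoxd9 and Hoxd10 named here and the brighter one of Hoxd8 passed as lower in each setting that tested them. Hoxa3, Hoxd11, Hoxd13 and the second probe set of Hoxd8 did not. Without scaling between arrays 6 Hox probe sets were lower and 0 higher. That setting raised the share of higher calls among all called probe sets to 68.3%, against 48.9% in the fit reported here, and the median of all probe sets to 0.20. Since whole bodies were measured, fewer cells of a type and less RNA per cell cannot be told apart.

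**Figure D1:**
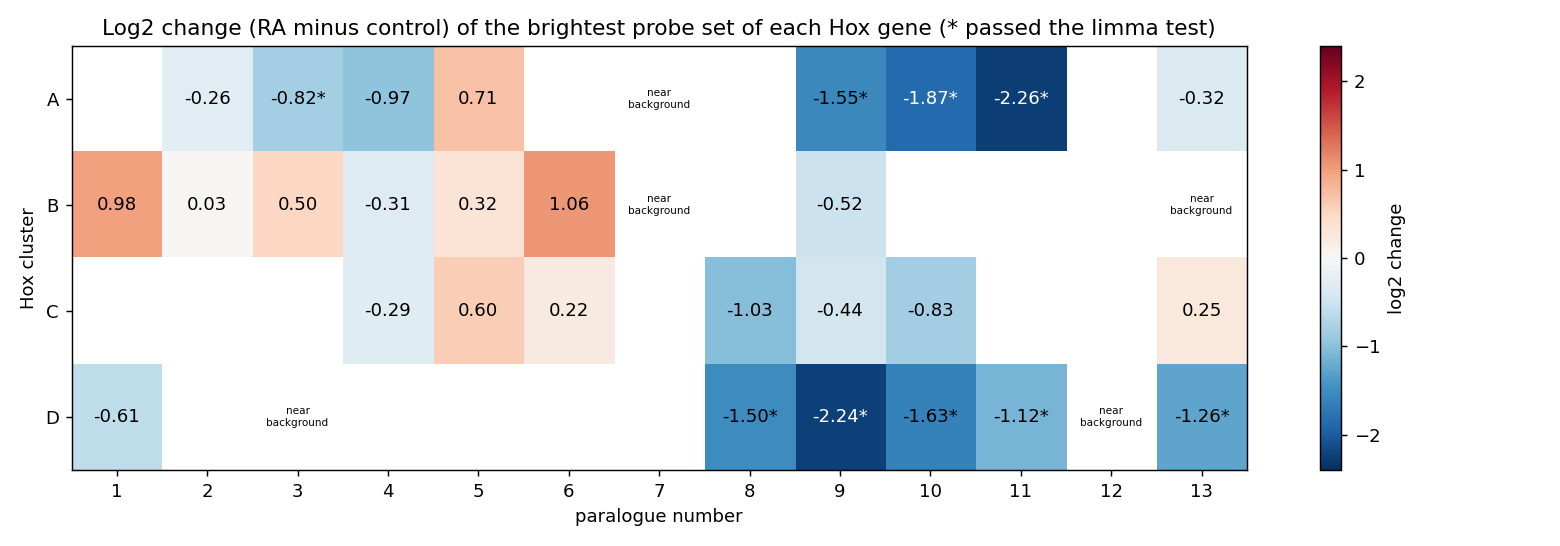
Log2 change, RA minus control, of the brightest probe set of each Hox gene, by cluster (rows) and paralogue number (columns). Stars mark adjusted p under 0.05 in limma, n = 3 arrays a group, and empty fields are numbers with no gene or no probe set named for that gene alone. The 9 starred genes lie in clusters A and D, with -2.26 for Hoxa11 and -2.24 for Hoxd9 at the low end.

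In cluster A the genes numbered 9, 10 and 11 fell. Hoxa11, which patterns the forearm and the kidney in the mouse, had log2 levels of 5.51, 5.32 and 4.97 on RA arrays 1, 2 and 3, against 7.48, 7.48 and 7.63 on control arrays 1, 2 and 3. Every RA array lay more than 1 unit below every control array, and the deposited intensities were 17.3 to 30.4 with RA and 125 to 176 in controls. The change was -2.26 ± 0.26 (SE), 4.80 times lower, with a limma adjusted p of 0.000335. The RA mean lay near background, which limits how large a fall can be measured.

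Hoxa10, known from the uterus and the lumbar spine, had 6.02, 5.90 and 5.70 in RA bodies, against 7.79, 7.98 and 7.45 in control bodies (probe set 1431475_a_at). The groups did not overlap, and the change was -1.87 ± 0.23, 3.65 times lower (limma adjusted p = 0.000464). A second Hoxa10 probe set, 1446408_at, was near background in both groups. Hoxa9, a posterior gene also known from blood progenitors, had 6.47, 7.02 and 7.08 in RA bodies and 8.41, 8.44 and 8.37 in control bodies (1455626_at). The RA arrays all lay below the controls, which spread over less than 0.1. It changed by -1.55 ± 0.18, 2.92 times lower (limma adjusted p = 0.000376). The dimmer Hoxa9 probe set 1421579_at ran from 5.61 to 6.43 with RA and from 6.04 to 7.00 in controls. The groups overlapped, with a difference of -0.45 ± 0.34 (limma adjusted p = 0.500), so the fall of Hoxa9 rests on 1 of 2 probe sets.

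At the end of the cluster, Hoxa13, a gene of the digits and the hindgut, had levels of 6.52, 6.0 and 5.92 with RA and 6.45, 6.45 and 6.49 in controls. RA array 1 lay at the control level and the other 2 below it. Its difference of -0.32 did not pass (limma adjusted p = 0.564, 95% interval -0.93 to 0.29). Hoxa7, between the low and the high numbers, was near background in both groups.

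Probe sets of the low-number genes of cluster A did not share a direction. Hoxa3, which is needed for the thymus and the parathyroid, has 4 probe sets. The pair annotated to 1 shared transcript sequence, which is not independent, was lower with RA. Probe set 1427433_s_at had 6.07, 5.93 and 6.08 in RA bodies, against 7.22, 7.11 and 6.96 in control bodies, and 1452421_at had 6.50, 6.03 and 6.29, against 7.16, 7.11 and 7.01. Neither overlapped between the groups, and they changed by -1.07 ± 0.23 and -0.82 ± 0.23 (limma adjusted p = 0.0119 and 0.0430). The other 2, 1431392_at and 1429398_at, differed by 0.59 ± 0.34 and 0.14 ± 0.32 with overlapping groups (limma adjusted p = 0.353 and 0.858). Without control array 1 the first of the pair had a limma adjusted p of 0.0590 and without control array 2 of 0.0525. The second was lost without any single array except RA array 1 (limma adjusted p between 0.0833 and 0.135). The mean of all 4 gave -0.29 (limma adjusted p = 0.322).

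Hoxa2, a gene of the hindbrain and pharyngeal arches, differed by -0.26 (95% interval -1.06 to 0.55). The brighter Hoxa4 probe set had 5.95, 4.67 and 6.09 with RA and 6.43, 6.70 and 6.50 in controls, with RA array 2 far below the others, and a difference of -0.97 ± 0.40 (limma adjusted p = 0.169). Its second probe set was near background in both groups. Hoxa5, a gene of the neck and lung, had 2 probe sets that pointed opposite ways, at 0.71 ± 0.42 and -0.79 ± 0.49, and neither passed (limma adjusted p = 0.367 and 0.392). The first of these carries the _x_at suffix, which Affymetrix uses for probes that may also read other sequences.

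**Figure D2:**
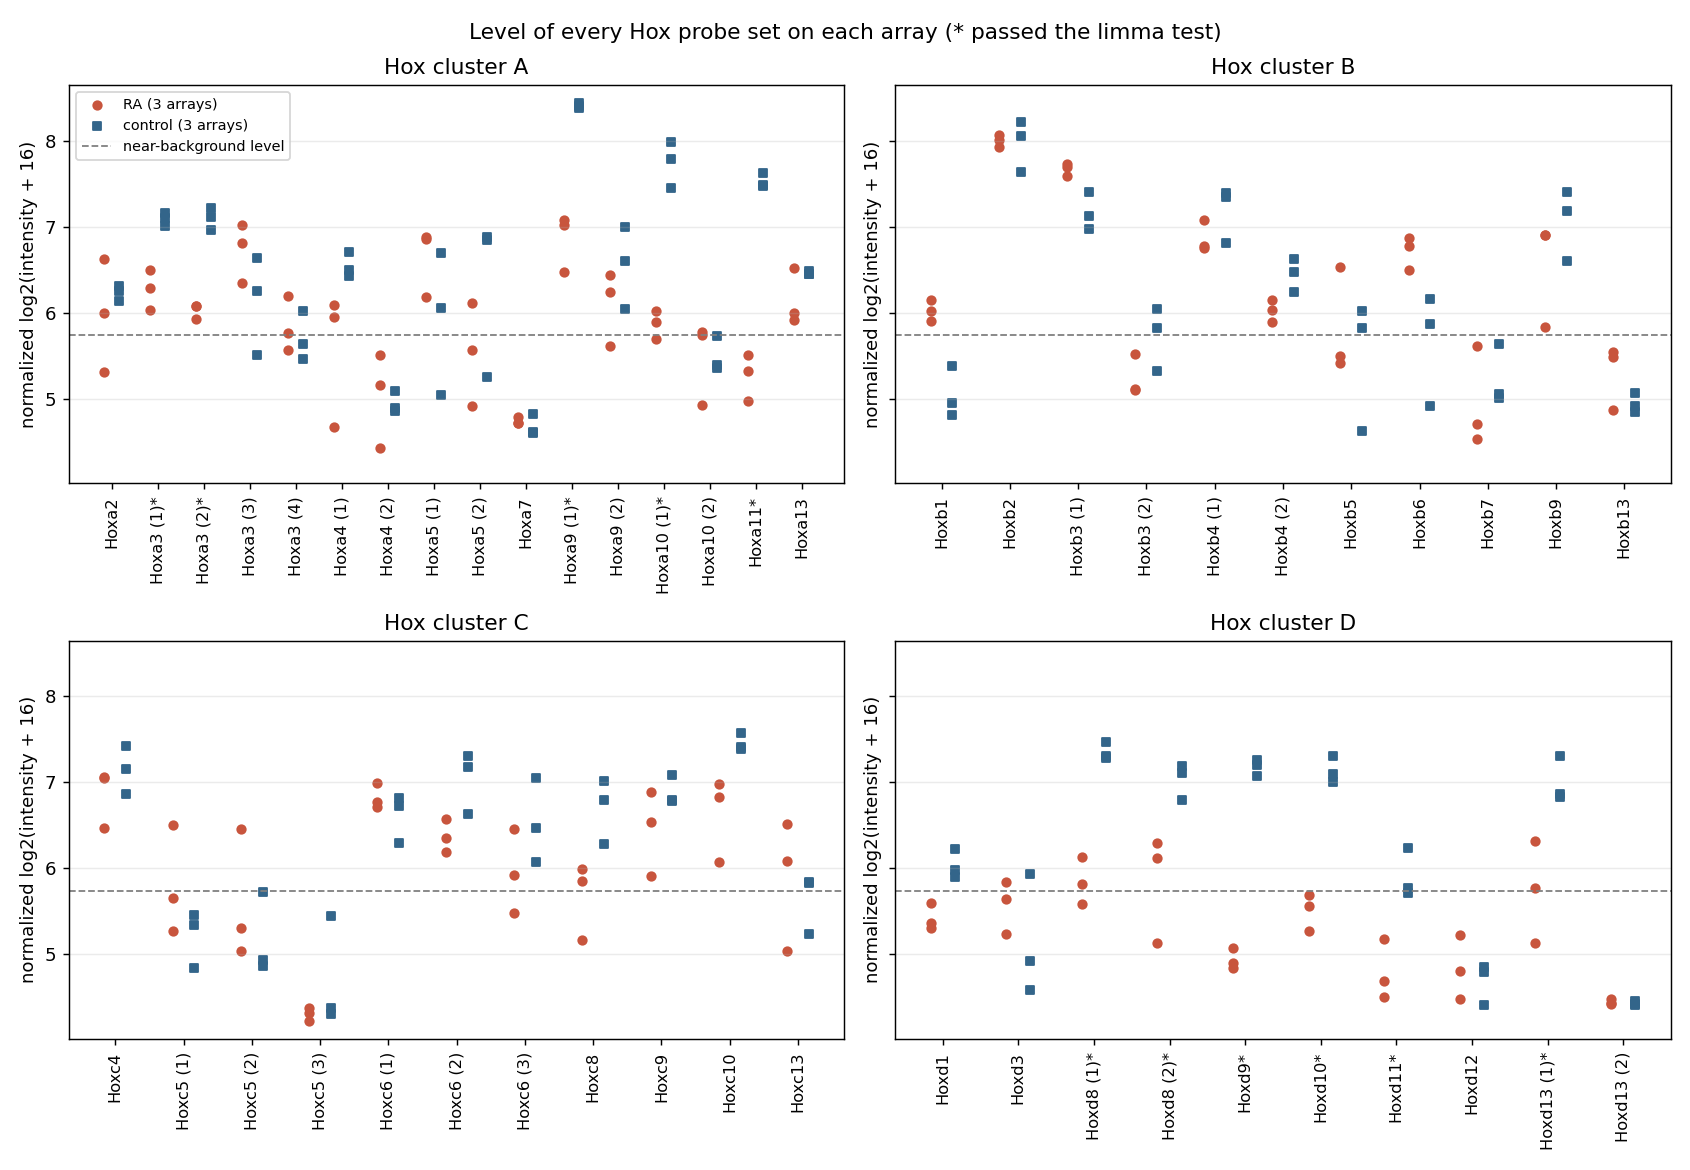
Log2 level of all 48 Hox probe sets on each array, with RA arrays as circles left of control arrays as squares and 1 panel for each cluster. Numbers in brackets order the probe sets of a gene from bright to dim, stars mark adjusted p under 0.05, and the dashed line is the near-background level of 5.74. In Hoxa11, Hoxd9 and Hoxd10 the 3 RA points lie under this line and the 3 control points above it.

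In cluster D the genes numbered 8, 9, 10, 11 and 13 fell. Hoxd9, a gene of the lower spine and the limb, had 5.07, 4.85 and 4.90 in RA bodies, against 7.26, 7.07 and 7.20 in control bodies. All RA arrays were near background and all control arrays above it. The change was -2.24 ± 0.27, 4.71 times lower (limma adjusted p = 0.000501). Hoxd10, which patterns lumbar motor neurons and the hindlimb, had 5.56, 5.68 and 5.27 with RA and 7.10, 7.00 and 7.30 in controls. It changed by -1.63 ± 0.26, 3.09 times lower (limma adjusted p = 0.00271), again with the RA mean near background.

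Both Hoxd8 probe sets were lower. The brighter, 1431099_at, had 5.82, 6.13 and 5.59 in RA bodies and 7.47, 7.30 and 7.28 in control bodies, a change of -1.50 ± 0.24 or 2.83 times lower (limma adjusted p = 0.00255). The other, 1433638_s_at, had 6.12, 6.30 and 5.13 with RA and 6.79, 7.19 and 7.11 in controls, and changed by -1.18 ± 0.34 (limma adjusted p = 0.0478). Its groups did not overlap, with RA array 3 lowest. The call was lost without any single array except RA array 2, with changes between -1.32 and -0.83 and limma adjusted p between 0.0625 and 0.154.

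Hoxd11, a forearm and kidney gene like Hoxa11, had 4.69, 5.18 and 4.50 in RA bodies, against 5.71, 5.78 and 6.24 in control bodies. The controls themselves lay close to the near-background level. It changed by -1.12 ± 0.31 (limma adjusted p = 0.0407), and the call was lost without any single array except RA array 2, with limma adjusted p between 0.0628 and 0.162. Hoxd13, the last gene of the cluster and known from the digits, had a brighter probe set, 1440626_at, at 6.32, 5.13 and 5.77 with RA and 6.86, 7.31 and 6.83 in controls. It changed by -1.26 ± 0.34 (limma adjusted p = 0.0380), and this call was lost without any single array except RA array 1, with limma adjusted p between 0.0758 and 0.147. The probe set annotated to the RefSeq transcript of Hoxd13, 1422239_at, lay at the floor of the scale on all 6 arrays, between 4.41 and 4.48. The fall of Hoxd13 was thus seen in 1 of 2 probe sets.

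At the other end of cluster D, Hoxd1 had 5.36, 5.60 and 5.31 with RA and 5.90, 5.98 and 6.23 in controls. These levels straddled the near-background line without overlap, and the difference of -0.61 ± 0.29 did not pass (limma adjusted p = 0.249). Hoxd3 and Hoxd12 were near background in both groups. Of 3 probe sets that name several Hox genes together and were set apart for that reason, 0 passed by limma, and 0 at an unadjusted p under 0.05.

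No probe set of clusters B and C passed, 0 of 22 by limma. At an unadjusted p under 0.05 limma gave 3 higher and 3 lower. This is near the rate over all probe sets, 5371 higher and 5165 lower of 45037. Hoxb6, Hoxc8 and Hoxc10 passed when dim probe sets were left out of the fit. That filter takes the mean over all 6 arrays. The control mean of Hoxb6 (5.65) and the RA mean of Hoxc8 (5.67) lay under 5.74, so each stayed in only through its higher group. Hoxb6, a gene of the lateral plate mesoderm, had 6.87, 6.77 and 6.49 in RA bodies, against 6.16, 5.87 and 4.91 in control bodies. The groups did not overlap, with control array 3 lowest, and the change was 1.06 ± 0.36 (limma adjusted p = 0.0938, and 0.0440 without probe sets whose mean lay under 5.74). Hoxb1, a hindbrain gene and a known direct target of retinoic acid receptors, had 5.91, 6.15 and 6.03 with RA and 4.81, 5.39 and 4.95 in controls. Its control mean lay near background, and its change of 0.98 ± 0.30 had a limma adjusted p of 0.0635. The brighter Hoxb3 probe set had 7.69, 7.73 and 7.59 with RA and 7.12, 7.41 and 6.98 in controls, with a change of 0.50 ± 0.17 (limma adjusted p = 0.0889). These 3 were the higher ones at an unadjusted p under 0.05.

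Hoxb2, a hindbrain gene, was bright in both groups at 7.93, 8.06 and 8.01 with RA and 8.05, 7.63 and 8.22 in controls. Its change of 0.03 had a 95% interval of -0.33 to 0.40, which leaves out changes as large as those of Hoxa9 to Hoxa11. Hoxb9, the paralogue of Hoxa9 and Hoxd9, ran from 5.84 to 6.91 with RA and from 6.60 to 7.41 in controls. Its difference was -0.52 (95% interval -1.26 to 0.23). The Hoxb4 probe sets differed by -0.31 and -0.42, and Hoxb5 by 0.32, with limma adjusted p of 0.465, 0.409 and 0.752. Hoxb7, Hoxb13 and the second Hoxb3 probe set were near background in both groups. Cluster B lies on chromosome 11, whose other probe sets above background were lower with RA more often, at 18.0% lower and 4.08% higher, against 9.12% and 8.82% over the genome. On chromosomes 6, 15 and 2, with clusters A, C and D, the lower share was 11.7%, 7.39% and 8.70%, and the part of the chromosome in the HoxB values was not tested.

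In cluster C, Hoxc8, a gene of the thorax and its motor neurons, had 5.85, 5.99 and 5.17 in RA bodies, against 6.80, 7.02 and 6.28 in control bodies. Hoxc10, a lumbar gene, had 6.07, 6.98 and 6.83 with RA and 7.41, 7.57 and 7.38 in controls. Neither overlapped between the groups. The changes were -1.03 ± 0.34 and -0.83 ± 0.25 (limma adjusted p = 0.0823 and 0.0615, and 0.0372 and 0.0318 without the dim probe sets). Hoxc9 differed by -0.44 (95% interval -1.08 to 0.20), Hoxc4 by -0.29 and Hoxc13 by 0.25, with overlapping groups. The 3 probe sets of Hoxc6 gave 0.22, -0.67 and -0.58, and the brightest of Hoxc5 gave 0.60, while its other 2 were near background in both groups. None of these had a limma adjusted p under 0.1.

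**Figure D3:**
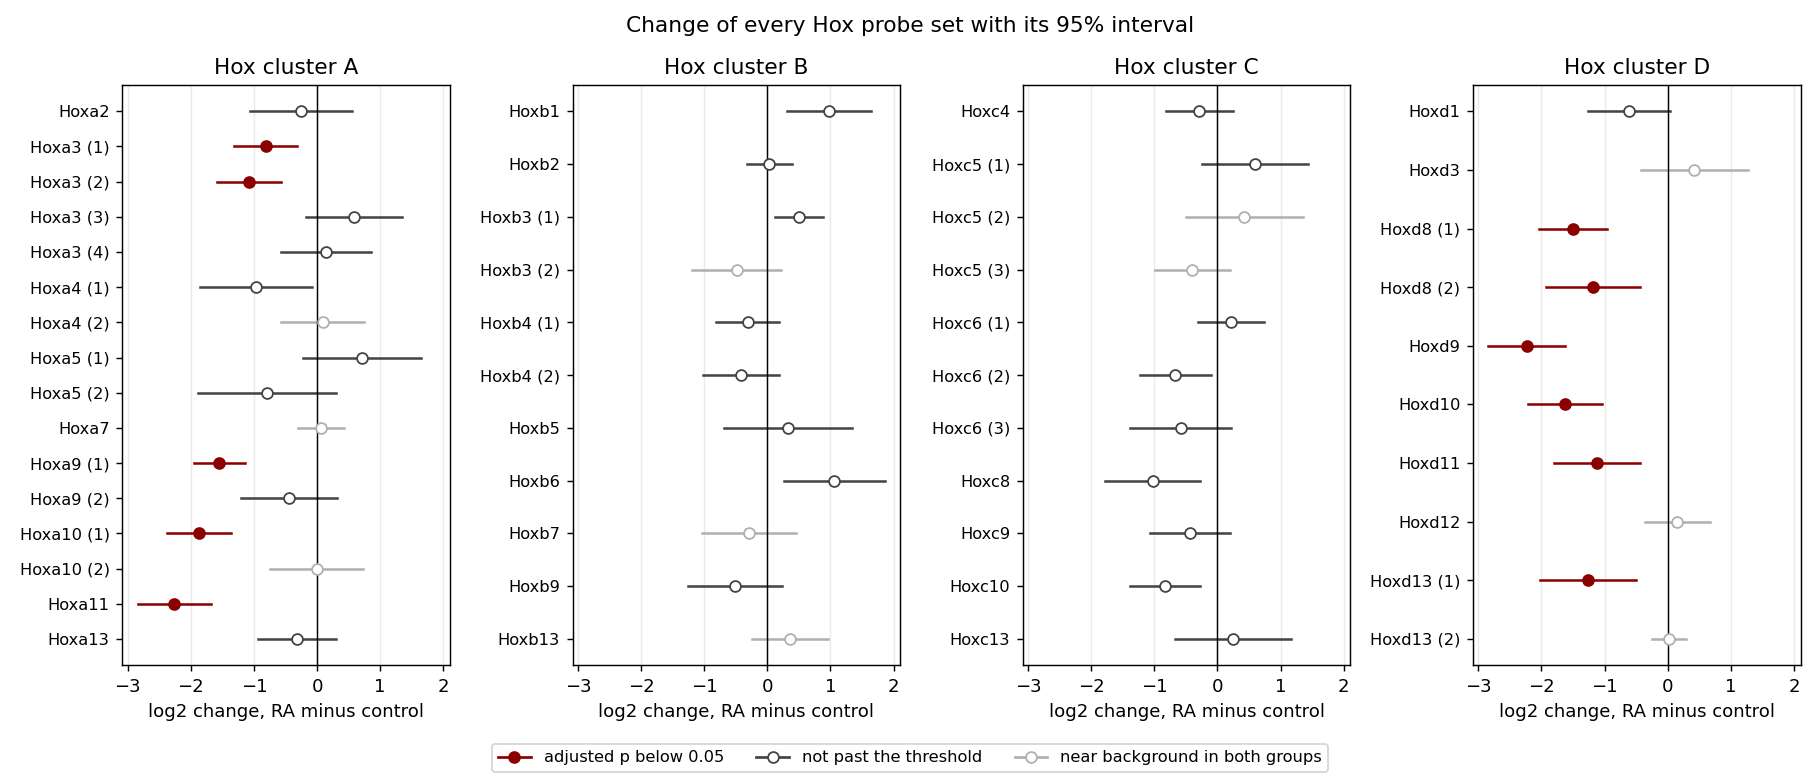
Log2 change, RA minus control, of the 48 Hox probe sets with the 95% interval of the limma fit, from n = 3 arrays a group, ordered by paralogue number in each cluster. Filled points passed at adjusted p under 0.05, and grey ones were near background in both groups. The filled points lie between -2.26 and -0.82, and clusters B and C hold none.

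Set out by paralogue number, 2 of 16 probe sets with numbers 1 to 4, 2 of 15 with numbers 5 to 8 and 7 of 17 with numbers 9 to 13 were lower by limma, against the background of 6.15%. All of the last 7 were among the 12 probe sets of clusters A and D, and 0 were among the 5 of clusters B and C. Over the 28 genes above background in a group, the change of the brightest probe set and the paralogue number had a Pearson r of -0.50 and a Spearman rho of -0.51. Within clusters A, B, C and D rho was -0.45, -0.29, -0.21 and -0.09 over 8, 7, 7 and 6 genes, each weaker than over all genes. The 5 genes left out, near background in both groups, were Hoxa7, Hoxb7, Hoxb13, Hoxd3 and Hoxd12. Several of the 28, such as Hoxb1, Hoxb6, Hoxa11 and Hoxd9, were kept only through the group where they were higher. The choice of genes thus depended on the same values, and dim genes with small changes were dropped. These correlations are a description across genes, which share the 6 arrays and in part their cluster.

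Whether paralogues differed in their change was tested within arrays, by the difference of their log2 levels. Each gene was read by its brightest probe set, in all 24 pairs of paralogues above background in a group. At number 9, the change of Hoxa9 minus that of Hoxb9 was -1.03, and minus that of Hoxc9 it was -1.11. The dimmer Hoxa9 probe set changed by -0.45, beside -0.52 for Hoxb9 and -0.44 for Hoxc9, so these differences rest on the brighter one. The changes of Hoxb9 and Hoxc9 minus that of Hoxd9 were 1.72 and 1.80. At number 10, Hoxa10 minus Hoxc10 was -1.04 and Hoxa10 minus Hoxd10 was -0.24. At number 11, Hoxa11 minus Hoxd11 was -1.15, although the falls of both end near the floor of the scale. At number 1, Hoxb1 minus Hoxd1 was 1.59, and at number 3 Hoxa3 minus Hoxb3 was -1.32. Hoxa3 probe set 1431392_at changed by 0.59, beside 0.50 for Hoxb3, so the Hoxa3 difference also depends on the probe set. At number 10 Hoxc10 minus Hoxd10 was 0.80, and at number 13 Hoxc13 minus Hoxd13 was 1.51, both with overlapping groups. Paralogues in clusters A and D were also apart, with 0.69 for Hoxa9 minus Hoxd9 and 0.94 for Hoxa13 minus Hoxd13, without overlap. In all, RA and control arrays were separated in 11 pairs and overlapped in 13, and Hoxa10 with Hoxd10 was among the 13. The share of separated pairs among other genes was not computed. Of single probe sets over the whole array, 12839 of 45037 did not overlap between the groups. A gene of a pair could also lie near background in 1 group. In each separated pair the two-sided exact permutation p was 0.1, which is the smallest that 3 against 3 arrays allow, and it became 0.218 after adjustment over the 24 pairs. The test could thus not pass the threshold of 0.05 here, and the values stand as a description.

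Genes of the Hox cofactors were lower with RA as well. By the brightest probe set, 4 of 8 measured members were lower and 0 higher by limma, against 9.58% lower and 8.62% higher among 18193 genes. At an unadjusted p under 0.05 limma gave 5 lower and 0 higher, against 2978 lower and 2799 higher of the 18193 genes. Meis2 had 8.28, 8.54 and 8.51 in RA bodies, against 10.72, 10.83 and 10.54 in control bodies, and Meis1 had 8.11, 7.78 and 8.46, against 9.85, 10.00 and 9.75. Both encode partners of Hox proteins, their groups lay far apart, and they passed in all 18 alternatives. They changed by -2.25 ± 0.11 and -1.75 ± 0.16 (limma adjusted p = 8.63e-07 and 7.21e-05). The Pbx genes Pbx2 and Pbx3 changed by -0.71 ± 0.10 and -0.62 ± 0.07 (limma adjusted p = 0.000962 and 0.000260), and neither passed without scaling. With scaling to a common median Pbx3 did not pass either, at -0.42 (limma adjusted p = 0.129). Meis3, Pbx4, Pknox1 and Pknox2 did not pass, with changes from -0.49 to 0.25. The list's median was -0.55, against 0.01 over all genes, and Meis1 lies on chromosome 11.

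Genes that act upstream of Hox genes moved in both directions. Of 13 measured members 2 were higher and 2 lower by limma, against 8.62% higher and 9.58% lower among all genes, and the median was -0.08. Cyp26a1, the enzyme that clears RA, had 9.95, 9.99 and 9.76 in RA bodies, against 7.10, 6.83 and 6.69 in control bodies. The receptor gene Rarb had 4.68, 5.49 and 5.52 with RA and 8.01, 7.96 and 8.01 in controls. Cyp26a1 was thus higher on every RA array, by 3.02 ± 0.13, and Rarb lower on every one, with a change of -2.77 ± 0.28 (limma adjusted p = 5.92e-07 and 0.000137). The RA-making enzyme Aldh1a2 changed by -1.54 ± 0.27 (limma adjusted p = 0.00446). Fgf8, a growth factor of the posterior embryo, had 5.37, 6.84 and 6.41 with RA and 4.66, 4.77 and 4.51 in controls. RA array 1 was the lowest of its RA arrays, and the change was 1.55 ± 0.39 (limma adjusted p = 0.0266), a call lost without RA array 2 or 3 or any single control array.

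The Cdx genes, homeobox regulators of posterior Hox genes, did not pass in either direction. Cdx2 had 6.98, 7.20 and 7.41 in RA bodies and 7.12, 7.89 and 6.70 in control bodies, a change of -0.04 (95% interval -0.67 to 0.60, limma adjusted p = 0.964). Cdx1 and Cdx4 were near background in both groups. Wnt3a, Gdf11, Egr2, Gbx2 and Rarg did not pass, and Gbx2 had the smallest limma adjusted p of them, 0.0600, at a change of 1.30 ± 0.39. Rara was near background in both groups.

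**Figure D4:**
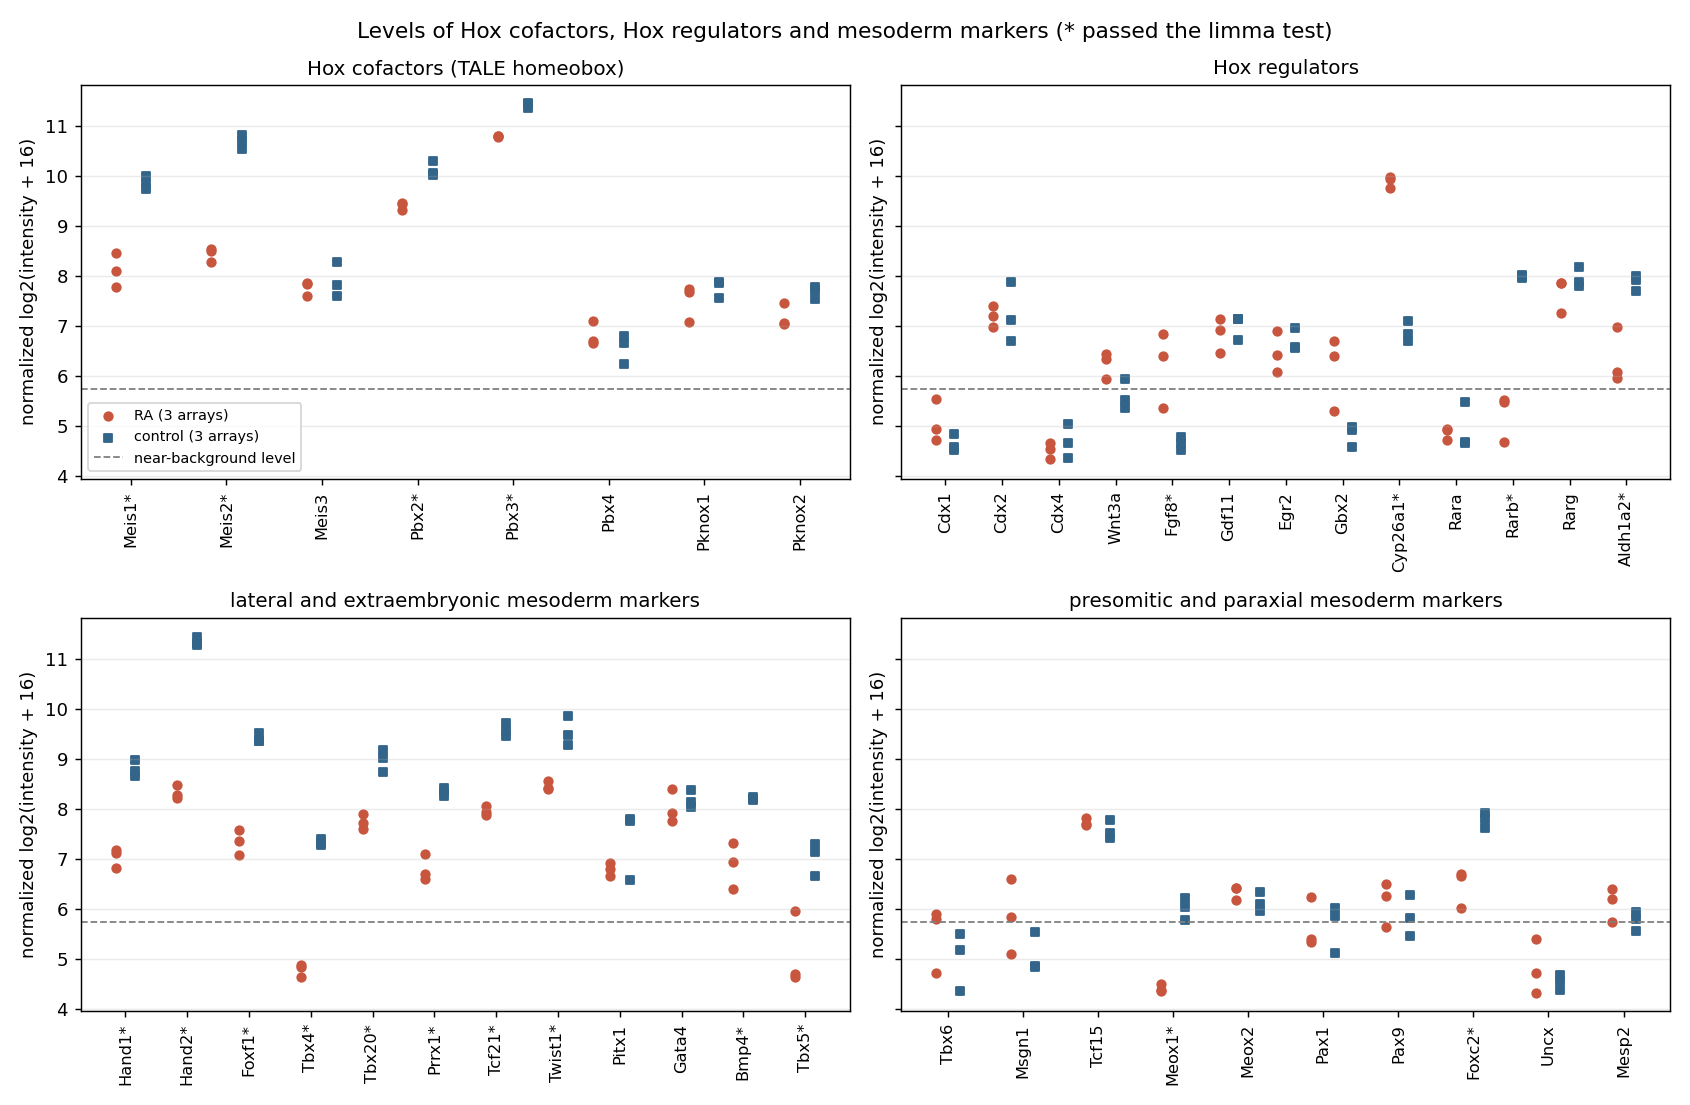
Log2 levels of the brightest probe set of Hox cofactors, Hox regulators and 2 lists of mesoderm markers, with RA arrays as circles left of control arrays as squares. Stars mark adjusted p under 0.05 in limma and the dashed line is the near-background level. The circles of Meis1, Meis2, Rarb and most lateral mesoderm markers lie below the squares, and those of Cyp26a1 above them.

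Markers of lateral and extraembryonic mesoderm were lower on the same arrays, and their part in the Hox changes was not tested. Of 12 such markers 10 were lower and 0 higher by limma, against 9.58% lower and 8.62% higher among all genes, which is also the background for the marker lists that follow. At an unadjusted p under 0.05, 10 were lower and 0 higher, against 2978 lower and 2799 higher of 18193 genes. Their summed level, on the linear scale after normalization, was 1792 to 2031 on the RA arrays and 6743 to 7307 on the control arrays. Tbx4, a T-box factor of the hindlimb bud and the allantois, had 4.83, 4.87 and 4.64 in RA bodies, against 7.28, 7.40 and 7.33 in control bodies, and changed by -2.55 ± 0.27 (limma adjusted p = 0.000212). Its RA arrays were near background, while Hand1, Foxf1, Twist1 and Tcf21 stayed above it with changes of -1.77, -2.08, -1.08 and -1.62. Hand1 and Tbx4 lie on chromosome 11. Gata4 and Pitx1 did not pass. Without scaling 7 of the 12 were lower, with Tbx20, Twist1 and Bmp4 no longer passing.

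Of 10 presomitic and paraxial mesoderm markers 2 were lower, Meox1 (-1.61 ± 0.25) and Foxc2 (-1.32 ± 0.23), and 0 higher by limma (limma adjusted p = 0.00226 and 0.00364), against 9.58% lower among all genes. At an unadjusted p under 0.05 the counts were also 2 lower and 0 higher, against 2978 lower and 2799 higher of 18193 genes. Their summed level was 558 to 604 on the RA arrays and 575 to 714 on the control arrays, and Uncx, Tbx6 and Pax1 were near background in both groups. Of 10 hindbrain and spinal cord markers 1 was higher, Pax3 (1.20 ± 0.31, limma adjusted p = 0.0322), and 0 lower, against 8.62% higher among all genes. At an unadjusted p under 0.05, 3 were higher and 0 lower, against the same 2799 higher and 2978 lower of 18193 genes. The Pax3 call was lost without RA array 2 or 3 or control array 1 or 2 and with the replicate block, with limma adjusted p up to 0.131. The list's summed level was 1555 to 1805 on the RA arrays and 1234 to 1507 on the control arrays, and Olig2, Nkx6-2 and Pax7 were near background in both groups. Of 7 forebrain and midbrain markers, 5 were higher and 1, Lhx2, was lower, against 8.62% higher and 9.58% lower among all genes. The labels name no cell type. Whether these markers were read from cells of those regions was not tested, nor was the part of such cells in the Hox changes. Of the 5, En2 (0.93 ± 0.24, limma adjusted p = 0.0318) was lost without any single array except RA array 1, and in 8 of 18 alternatives in all. The list's summed level was 1220 to 1236 on the RA arrays and 438 to 547 on the control arrays. Among them Otx2 had 9.06, 9.32 and 9.19 in RA bodies, against 7.20, 7.12 and 6.04 in control bodies, and Hesx1 had 7.98, 7.66 and 7.76, against 5.72, 5.56 and 5.89.

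Genes next to the clusters were set beside them, taking the 3 nearest measured genes on each side in the RefSeq order. Of these 24 genes 2 were higher and 5 lower by limma, against 8.62% higher and 9.58% lower among all genes, with a median of -0.09. Past the high-number end of cluster A lie Evx1os, Evx1 and Hibadh. Evx1, a homeobox gene of the posterior streak, had 7.56, 7.50 and 7.48 in RA bodies, against 6.65, 6.29 and 5.91 in control bodies. It rose by 1.23 ± 0.23 (limma adjusted p = 0.00612), opposite in sign to Hoxa9, Hoxa10 and Hoxa11 nearby. On the other side of cluster A, Snx10 rose by 1.04 ± 0.16 (limma adjusted p = 0.00165). Beside cluster D, Evx2, Lnpk, Atp5g3, Mtx2, Nfe2l2 and E030042O20Rik did not pass, with changes from -0.19 to 0.27. The 5 lower neighbours were Hibadh by cluster A, Calcoco2 and Atp5g1 by cluster B, and Smug1 and Hnrnpa1 by cluster C, with changes from -1.86 to -0.34. Smug1 and Hnrnpa1 were lost in most alternatives.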

How the data were processed

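Intensities were deposited as 1 linear signal per probe set for 6 arrays, made by the authors with Affymetrix GCOS at default settings, per the labels; its version is not given in the sources used here. The trimmed means of the arrays (2% off each end) ran from 108 to 191, so the deposited intensities were not on a common scale. Probe sets were named from the array's annotation table, updated to RefSeq through gene identifiers (0 symbols changed). After leaving out 64 control probe sets, log2(intensity + 16) was quantile-normalized and all 45037 probe sets were fitted at once with limma 3.58.1 in R 4.3.3 (lmFit, eBayes with a trend, two-sided, no covariates), with Benjamini-Hochberg adjustment and a threshold of 0.05. Genes of other lists were read by their brightest probe set. No detection calls were used, and the number of arrays limits the precision.

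Every Hox probe set was accounted for. Array values were given for those that passed, or that changed at least 2-fold with a group above background, and for others chosen after their values were seen. The members, lists and rules were chosen with earlier results of these data known. On simulated data for this comparison (45037 probe sets), 29% of 100 probe sets changed by 1 and 82% of 100 changed by 2 on the log2 scale were recovered. The changed ones were all drawn from probe sets brighter than the median. The simulation gave 116 calls and the real fit 5413, so the adjusted threshold was stricter in the simulation. These rates therefore do not carry over to the real fit or to dim Hox probe sets. The alternatives covered scaling, pseudocount, filter, probe set choice, variance model, replicate block and left-out arrays.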

Additional observations from a re-analysis of the deposited data

How the results depend on the processing

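Over 18 alternatives, 6 of the 11 called Hox probe sets (Hoxa9, Hoxa10, Hoxa11, Hoxd9, Hoxd10 and the brighter of Hoxd8) stayed lower and past the threshold in each that tested them, and Hoxd9 was not tested with a filter at the median. Lower Hox probe sets numbered 6 without scaling, 7 with the replicate block and 6 to 10 without 1 array (8 without RA array 1 and control array 3 together), against 11 in the fit reported. Higher ones numbered 1 with a pseudocount of 64, with the filter at the 40th percentile, with the mean of a gene's probe sets and with no variance trend, and 2 with the filter at the median and with the brightest probe set per gene, against 0. These were Hoxb1, Hoxb3 or Hoxb6. The cause of these shifts was not tested. Over all probe sets, 671 were lower and 1448 higher without scaling, 1736 and 1394 with no trend, and 1415 and 1314 genes with the mean of probe sets. Without 1 array 1711 to 2226 were higher. Lower cofactors numbered 2 without scaling and 3 with a common median. Higher regulators numbered 1 with both filters, the brightest filtered probe set and no trend, and 1 to 3 without 1 array. The filters left Fgf8 untested, and its call was lost with no trend. Lower genes beside the clusters numbered 1 without scaling and with a common median, 2 with no trend and 2 to 5 with arrays left out. Marker lists were run under the alternatives after seeing the data. Lower lateral and extraembryonic markers numbered 7 without scaling and 9 with the mean of probe sets, which lost Prrx1 and Tbx5 and gained Pitx1. They numbered 8 with the filter at the median, which left Tbx4 and Tbx5 untested. Lower presomitic markers numbered 1 with both filters and the brightest filtered probe set, where Meox1 was too dim to be tested. Meox1 passed in all 15 alternatives that tested it. Higher hindbrain markers numbered 2 with the mean of probe sets, 0 with the block and 0 to 1 without 1 array. Hnrnpa1 changed sign, to 0.041 without scaling and 0.12 with the mean of its probe sets. Arrays with the same replicate number did not deviate together (correlations of -0.08 to -0.01), so the numbers were not used as pairs, and with them as a block 2331 probe sets were lower and 2194 higher. Leaving out 1 array leaves 2 in its group, and Hox levels near background limit how large a fall can be measured.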
